A study of Homo sapiens with 6 samples.

Results

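The genes described here are 48 members of the Wnt signalling pathway, out of 19974 protein-coding genes on the chromosomes that carried peaks. They form a list of 18 Wnt ligands, 12 receptors and co-receptors, 10 cytoplasmic parts, 4 nuclear factors and 4 feedback regulators. A member was given every peak that overlapped its RefSeq span extended by 5 kb on either side, here called its window. All 48 members were found in the RefSeq table for GRCh38.p14, and no peak was counted for more than 1 member.

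The peaks mark lactylation of lysine 5 of histone H4 (H4K5la), a histone mark in which a lactyl group is attached to the lysine side chain. They come from chromatin immunoprecipitation and sequencing (ChIP-seq) with 1 antibody in PLC/PRF/5, an established human hepatocellular carcinoma cell line. The control group was grown without added lactate and the treated group with 20 mM lactate for 24 h; both groups are the same line and no other agent is named. Each group has 2 libraries with a peak list, numbered replicates 2 and 3, and 1 input library per treatment was not analysed here.

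Control replicates 2 and 3 had 52215 and 52959 peaks, and lactate replicates 2 and 3 had 37951 and 38402. Median peak width was 547 and 537 bp in control and 448 and 437 bp in lactate libraries. The lists state no read depth, so whether a missing peak reflects fewer reads was not tested, and counts are also given with every list shortened to the same 37951 strongest peaks. The labels do not tell separate cultures from repeat libraries of 1 culture, so every p-value measures only the spread between these libraries. Of 9 liver cell marker genes, 2 (APOA1 and HNF4A) had a peak in all 4 libraries and 5, among them ALB and AFP, had none. Peaks in all 4 libraries also lay at 2 of 5 blood cell, 3 of 3 endothelial and 3 of 3 stromal marker genes. Over all coding genes, 33.0% had a peak in all 4 libraries and 40.6% had none. Peaks were thus not limited to markers of the labelled cell type, and these short lists, not matched for gene length, allow no further comparison.

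Wnt proteins are secreted, lipid-modified ligands that bind a Frizzled receptor together with the co-receptor LRP5 or LRP6. Without a ligand, a complex of Axin, APC and GSK3 kinases marks beta-catenin (CTNNB1) for breakdown. With a ligand, Dishevelled proteins (DVL) recruit Axin to the membrane, beta-catenin accumulates, and it works with TCF and LEF factors on target genes. In the liver the pathway sets the zonation of metabolic enzymes, and CTNNB1 and AXIN1 are recurrently mutated in hepatocellular carcinoma.

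Of the members, 3 carried a peak in all 4 libraries within 1 kb of an annotated start: WNT16, APC and DKK1. With lists of equal length WNT16 alone of these kept a start peak in all 4, and APC and DKK1 had none in control replicate 3. Their promoters, from 250 bases before to 50 bases after the start, are shown because a peak lay within 1 kb of the start. The downstream start of APC, where only the control libraries had a peak, is shown as well. At the upstream start of APC the peaks lay mostly outside the printed bases. They covered 181, 0, 0 and 35 of these in the order control 2, control 3, lactate 2, lactate 3. The sequences are RefSeq reference sequence of GRCh38.p14, plus strand, 5′ to 3′. Capitals mark CpG dinucleotides in the WNT16 and APC promoters. In the DKK1 promoter capitals mark matches to a TCF and LEF motif, searched on both strands as CTTTG followed by 2 bases that are each A or T.
WNT16, chr7:121328750-121329049: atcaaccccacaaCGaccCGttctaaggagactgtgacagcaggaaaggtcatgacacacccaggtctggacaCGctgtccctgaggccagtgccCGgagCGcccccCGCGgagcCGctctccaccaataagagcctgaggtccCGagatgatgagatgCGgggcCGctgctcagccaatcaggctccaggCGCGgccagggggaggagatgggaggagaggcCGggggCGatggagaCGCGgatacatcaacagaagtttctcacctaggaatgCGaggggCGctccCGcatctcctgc
APC, upstream start, chr5:112707248-112707547: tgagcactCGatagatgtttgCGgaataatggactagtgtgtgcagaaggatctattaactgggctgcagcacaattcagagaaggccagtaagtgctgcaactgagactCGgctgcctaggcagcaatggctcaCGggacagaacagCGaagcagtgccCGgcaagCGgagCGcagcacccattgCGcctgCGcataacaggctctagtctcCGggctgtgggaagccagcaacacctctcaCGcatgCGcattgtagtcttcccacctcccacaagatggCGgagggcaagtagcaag
APC, downstream start, chr5:112737635-112737934: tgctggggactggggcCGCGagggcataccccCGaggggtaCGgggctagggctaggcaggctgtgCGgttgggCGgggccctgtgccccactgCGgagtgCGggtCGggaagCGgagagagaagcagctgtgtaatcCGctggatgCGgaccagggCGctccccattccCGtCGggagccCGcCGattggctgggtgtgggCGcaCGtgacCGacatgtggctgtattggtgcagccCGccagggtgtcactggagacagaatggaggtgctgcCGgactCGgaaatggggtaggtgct
DKK1, chr10:52314031-52314330: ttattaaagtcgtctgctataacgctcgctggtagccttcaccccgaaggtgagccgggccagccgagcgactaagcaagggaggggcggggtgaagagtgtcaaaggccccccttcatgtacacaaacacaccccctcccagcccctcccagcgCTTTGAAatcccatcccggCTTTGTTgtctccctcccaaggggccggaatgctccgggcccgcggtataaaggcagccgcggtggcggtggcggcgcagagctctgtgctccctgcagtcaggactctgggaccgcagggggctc

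These promoters held 20 CpGs at WNT16, 14 and 23 at the upstream and downstream starts of APC, and 20 at DKK1, against a median of 21 over 22156 coding promoters of the same length. The 5 Frizzled promoters in the table held a median of 31 CpGs, from 25 to 40, and none of them had a peak at the start. DKK1 encodes a secreted inhibitor that binds LRP5 and LRP6, and its promoter held 2 of the motif matches. At least 1 match was found in 11.2% of the coding promoters. A match is a string of letters and shows no binding.

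In the WNT16 window each control library had 1 peak, of 2000 and 2008 bp. Each lactate library had 2 peaks there, the wider of 811 and 1228 bp. Joining peaks within 1 kb turned the lactate to control ratio of covered bases from 0.707 to 1.08, so the direction at WNT16 rests on that split. Fold enrichment over the local background is the authors' value. For the peak within 1 kb of the start it was 7.60 and 12.4 in control against 8.34 and 18.4 in lactate libraries. The highest fold of lactate replicate 2 in the window was 10.1, at its other peak. WNT16 encodes a ligand best known in bone and joint. At DKK1 the single peak was 549 and 422 bp wide in control and 662 and 599 bp in lactate libraries, the opposite order.

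APC, the scaffold of the destruction complex, has 2 annotated starts in the table. At the upstream start the peak was 913 and 648 bp wide in the control and 595 and 596 bp in the lactate libraries, with folds of 8.94, 6.27, 7.73 and 7.87 in the order control 2, control 3, lactate 2, lactate 3. At the downstream start the control libraries held peaks of 711 and 634 bp, with folds of 5.70 and 4.74, and neither lactate library held one. With lists of equal length the downstream peak was left in control replicate 2 alone, and the APC ratio of covered bases went from 0.597 to 0.991, with overlapping groups.

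Peaks at gene starts were few. For 12 members (WNT7B, WNT10B, WNT11, FZD2, FZD3, FZD6, FZD7, FZD10, LRP6, AXIN2, ZNRF3 and LGR5) either end of the gene was used instead of a start. With these, WNT10B and WNT11 joined the list, so 5 of 48 members had a start or end peak in all 4 libraries, against 7.06% of all coding genes. With an annotated start alone it was 3 of 36 members, against 6.02%. In at least 1 library, 10 of 48 members had such a peak, against 25.8%. Among members with an annotated start, 5 of 141 peaks in control replicate 2 and 3 of 96 in lactate replicate 2 had their summit within 1 kb of it. The median distance from summit to start was 28.5 and 26.1 kb in control and 29.1 and 32.0 kb in lactate libraries. Summits lay inside the member's own span for 84.5 and 83.1% of peaks in control and 82.4 and 85.3% in lactate libraries, so most peaks lay within gene bodies and away from starts.

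Over all members, the first question was which genes of the pathway carried the mark at all. A peak was present in all 4 libraries in the windows of 25 of 48 members (52.1%), against 33.0% of all coding genes. No library had a peak in 13 member windows (27.1%), against 40.6%. Only DVL1 had peaks in the control libraries alone, where 5.77% of coding genes did, and no member had peaks in the lactate libraries alone, where 1.11% did. The remaining 9 members were mixed, against 19.5%. Of the 25 members with peaks in all 4 libraries, 22 had in each library a peak over their own span and over no other coding gene. When overlapping peaks were merged into regions, 21 of the 25 held a region with a peak in all 4 libraries. WNT3, GSK3A, TCF7L1 and LEF1 held none, so their peaks lay at differing positions.

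The roles of the proteins differed in how much of their windows lay under peaks. Ligand windows were covered over 9.38 and 9.78% of their length in control and 5.05 and 4.85% in lactate libraries. For all coding windows the values were 2.15 and 2.17%, and 1.13 and 1.12%. Frizzled windows held 1 peak in 1 library. Cytoplasmic parts were covered over 2.95, 3.13, 1.09 and 1.33%, nuclear factors over 2.83, 2.99, 1.35 and 1.64%, and feedback regulators over 1.09, 0.984, 0.883 and 0.851%, each in the order control 2, control 3, lactate 2, lactate 3. Frizzled genes and feedback regulators lay below the value for all coding genes in every library. These values pool the windows of a role and can rest on few genes. As means of 4 libraries, TCF7 had 17.2% of its window covered, against 1.42% at TCF7L1, 0.561% at TCF7L2 and 0.439% at LEF1. The median over ligand genes was 3.79%, and over all coding genes 0.299%.

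**Figure D1:**
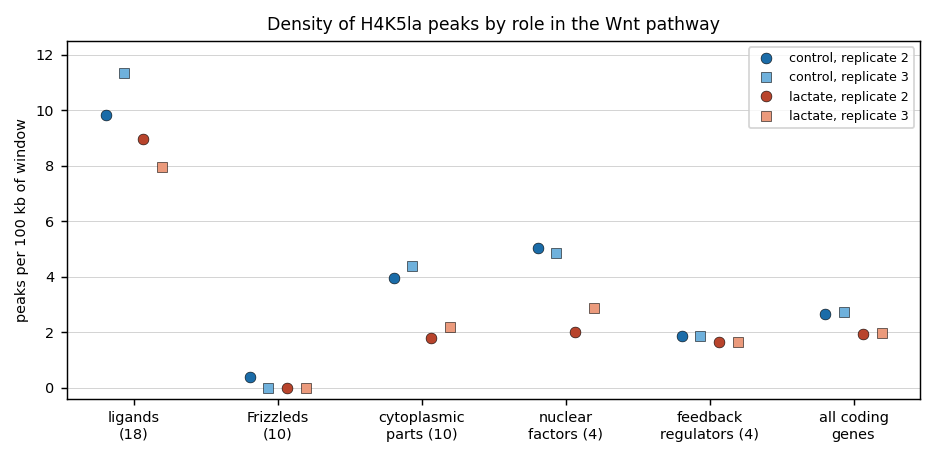
Peaks per 100 kb of gene window (vertical axis) for ligands, Frizzled genes, cytoplasmic parts, nuclear factors, feedback regulators and all coding genes. There is 1 point per library, and the number of genes stands under each group of members. LRP5 and LRP6 are not plotted. With them, the 12 receptor windows held 5.02 and 5.19 peaks per 100 kb in control and 3.80 and 4.50 in lactate libraries. Ligands lie highest in all 4 libraries, and Frizzled windows hold no peak except in control replicate 2.

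The 18 Wnt ligand genes were the role with the densest peaks. A peak was found in all 4 libraries at 12 of them, WNT2B had none, and WNT1, WNT2, WNT5A, WNT5B and WNT8B were mixed. WNT7B, a ligand of the canonical and noncanonical branches, was the most covered ligand: 24443 and 25052 bp lay under peaks in the control libraries and 9836 and 9619 bp in the lactate libraries. The lactate to control ratio was 0.393, from means of 24747.5 ± 430.6 and 9727.5 ± 153.4 bp (SD, n = 2), and the groups did not overlap. The gene lies on chromosome 22 from 45920366 to 45977162, and its window held 17 and 21 peaks in control and 15 and 13 in lactate libraries. Coverage thus differed more than peak number did. In the region of WNT7B from 45941156 to 45944826 the widest peak was 3613 and 1702 bp in control and 1588 and 1613 bp in lactate libraries. Control replicate 3 and lactate replicate 2 had 2 peaks there, so their widest peak is only part of what they covered. In the region from 45918107 to 45921318 the widest peak was 3211 and 3069 bp in control and 839 and 1377 bp in lactate libraries.

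WNT3A, the ligand most often used to activate the canonical branch in cultured cells, was covered over 11573 and 10422 bp in control and 6767 and 6060 bp in lactate libraries. It had 12 peaks in each control library and 11 and 9 in the lactate libraries, at chromosome 1 from 228006998 to 228061271. Its widest peak, 5013 bp in control replicate 2, lay where the other 3 libraries had 3, 2 and 2 separate peaks, so 1 library alone gives that width. WNT9A, its neighbour on the same chromosome, was covered over 10078 and 9375 bp in control and 4617 and 5569 bp in lactate libraries, with 9, 10, 10 and 10 peaks. For both ligands every control value lay above every lactate value.

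WNT7A, a relative of WNT7B, held the peaks with the best fold ranks among the members. Its highest fold was 15.9 and 15.2 in control against 18.1 and 18.7 in lactate libraries, and coverage was 7122 and 8054 bp against 5312 and 5273 bp. A fold ranks a peak within its own list and is no measure of change. WNT4, which acts in kidney and gonad development, was covered over 4531 and 7104 bp in control and 3426 and 2764 bp in lactate libraries. WNT11, a noncanonical ligand, was covered over 5757 and 5139 bp in control and 3858 and 2324 bp in lactate libraries. The groups did not overlap for any of these 3 ligands.

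Several ligand genes lie side by side and share surroundings. WNT10A was covered over 1566 and 2516 bp in control and 841 and 480 bp in lactate libraries (ratio 0.324). Most of the control coverage lay in the flank, and within the gene span alone the ratio was 1.06. Its neighbour WNT6 had 1 peak per library, of 1302 and 1075 bp against 582 and 553 bp of coverage. WNT3 was covered over 1380 and 2260 bp in control and 355 and 1236 bp in lactate libraries, and none of its 6 merged peak regions had a peak in all 4. With lists of equal length its ratio of 0.437 became 1.15. WNT10B was covered over 344 and 860 bp in control and 645 and 763 bp in lactate libraries, so its groups overlapped. The windows of WNT6 and WNT10A overlap, as do those of WNT1 and WNT10B, and the RefSeq span of LRRC37A2 covers the peak regions of WNT3 and WNT9B.

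**Figure D2:**
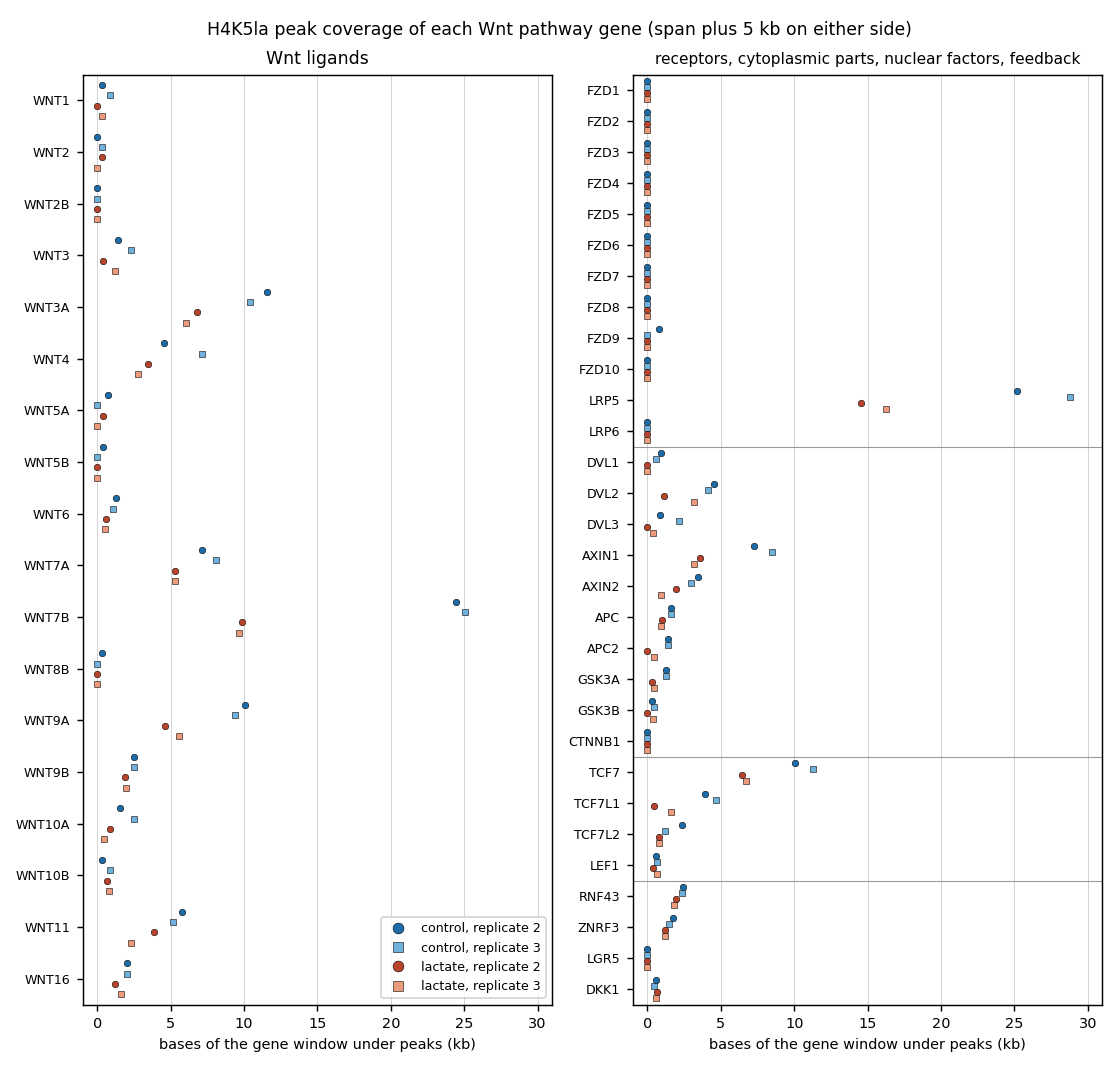
Bases of each member's window under peaks, in kb (horizontal axis), with 1 point per library; genes are rows, and grey lines separate the roles in the right panel. LRP5 and WNT7B reach the highest values, and 9 of 10 Frizzled genes and LRP6 are at 0 in all 4 libraries.

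The Frizzled receptor genes stood in contrast to the ligands. Of the 10 Frizzled genes, which encode the membrane-spanning receptors for Wnt, 9 had no peak in any library. FZD9 had 1 peak of 824 bp in control replicate 2 alone, on chromosome 7 from 73428741 to 73429564, outside the gene's span. Frizzled genes are short: 8 of their windows were under 20 kb, and 7 of these 8 held no peak, against 50.6% of coding windows of that length. With 20 kb on either side in place of 5 kb, 6 Frizzled windows held no peak.

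The co-receptor genes LRP5 and LRP6 have nearly the same length, 150864 and 151020 bp, and opposite readings. LRP5, on chromosome 11 from 68298412 to 68449275, held 28 and 30 peaks in control and 22 and 26 in lactate libraries. LRP6, on chromosome 12 from 12116025 to 12267044, held none in any library. Among 359 coding genes with windows within 10 kb of theirs in length, 33.1% had no peak in any library and 3.06% had 20 or more in every library.

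LRP5 was the most covered member, with 25151 and 28774 bp under peaks in control and 14531 and 16287 bp in lactate libraries. The means were 26962.5 ± 2561.8 and 15409 ± 1241.7 bp (SD, n = 2), a ratio of 0.571, and the groups did not overlap. Its peaks merged into 35 regions, of which 18 had a peak in all 4 libraries and 2 in the control libraries alone. The first of the regions shared by all, from 68332188 to 68332633, lay inside the gene, as the peak map shows. The widest LRP5 peak was 2342 and 2056 bp in control and 1664 and 1670 bp in lactate libraries.

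**Figure D3:**
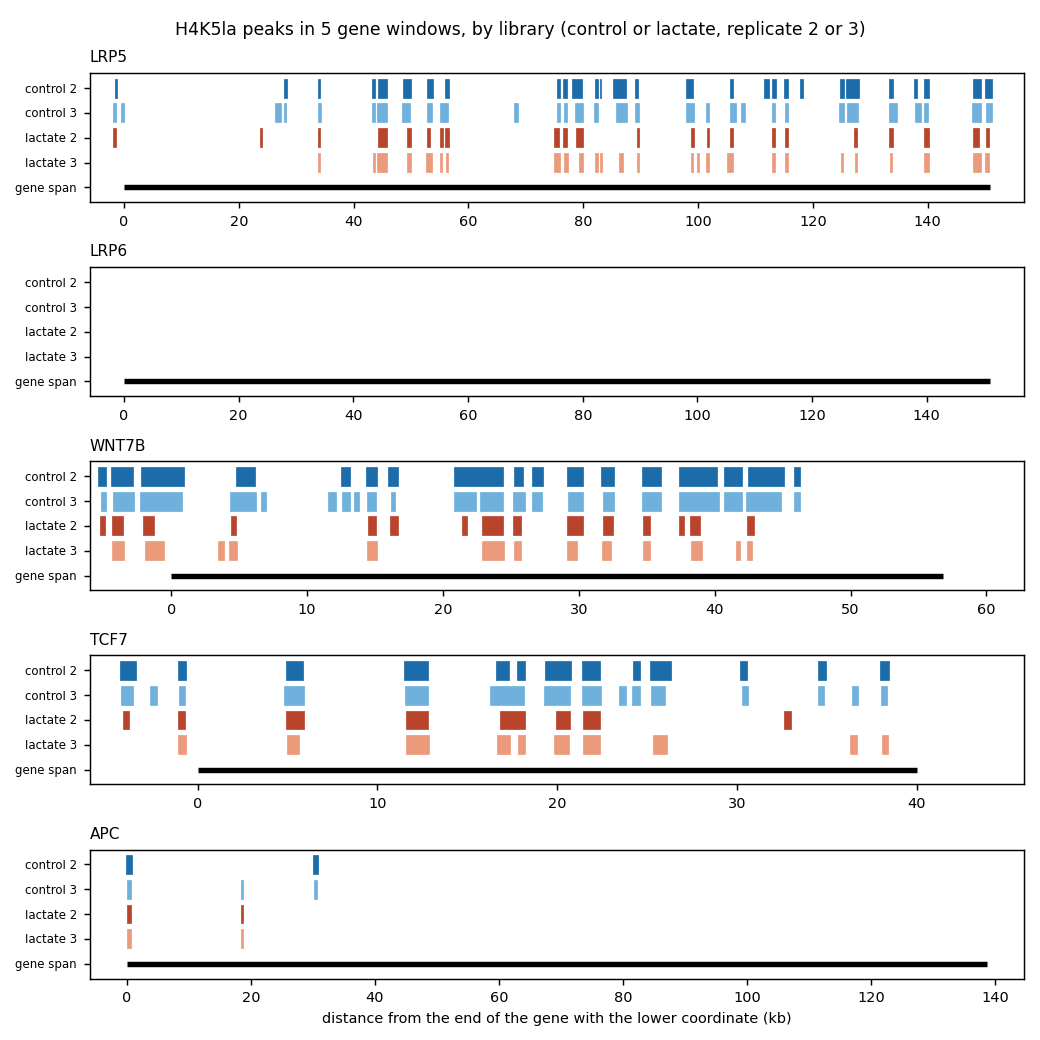
Positions of peaks (bars) along 5 gene windows, in kb from the end of the gene with the lower coordinate, with 1 row per library and the gene span as a black line. LRP5 carries peaks along most of its span, LRP6 has none, and at APC only the control rows hold the rightmost position.

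Among the 10 cytoplasmic parts, DVL2, AXIN1, AXIN2, APC and GSK3A had peaks in all 4 libraries. AXIN1, the limiting scaffold of the destruction complex, was covered over 7241 and 8489 bp in control and 3573 and 3159 bp in lactate libraries, with 12 and 12 peaks against 6 and 4. Of its 15 merged regions, 3 had a peak in all 4 libraries and 5 in the control libraries alone. AXIN2, a paralogue that is itself a Wnt target, was covered over 3433 and 2937 bp in control and 1953 and 903 bp in lactate libraries. Both Axin genes were lower in both lactate libraries, but with lists of equal length the ratio was 0.601 at AXIN1 and turned from 0.448 to 1.55 at AXIN2.

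DVL1 had 2 and 1 peaks in the control libraries, covering 939 and 560 bp at folds of 2.86 and 3.14, and none in the lactate libraries. With lists of equal length no member had peaks in the control libraries alone, so DVL1 did not keep that pattern. DVL2 was covered over 4508 and 4135 bp in control and 1139 and 3150 bp in lactate libraries, and DVL3 over 881 and 2114 bp against 0 and 361 bp. All 3 Dishevelled genes were lower in both lactate libraries, and the lactate replicates of DVL2 lay far apart. With lists of equal length the DVL2 ratio went from 0.496 to 0.899 and its groups overlapped.

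GSK3A, a kinase that phosphorylates beta-catenin, had 1 peak in each library, with 1263 and 1279 bp of coverage in control and 316 and 411 bp in lactate libraries. The control peaks lay outside the span of GSK3A and over ZNF526, and within the span only lactate replicate 2 had a peak. GSK3B was covered over 340 and 448 bp in control and 0 and 368 bp in lactate libraries. APC2, the brain-enriched relative of APC, was covered over 1382 and 1390 bp in control and 0 and 458 bp in lactate libraries. Both APC2 control regions lay outside its span and over C19orf25, and within the span the 1 peak was in lactate replicate 3. CTNNB1, which encodes beta-catenin itself, had no peak in any library.

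All 4 nuclear factor genes had peaks in all 4 libraries. TCF7 was the most covered, with 10032 and 11280 bp in control and 6469 and 6693 bp in lactate libraries, and 13 and 15 against 8 and 10 peaks. VDAC1 overlaps some of the TCF7 peak regions. TCF7L1, which often acts as a repressor, had 10 peaks in each control library and 1 and 4 in the lactate libraries, covering 3930 and 4693 bp against 413 and 1593 bp. Its ratio of 0.233, or 0.430 with lists of equal length, was with the full lists the lowest among the 25 members with peaks in all 4 libraries, and none of its 12 merged regions had a peak in all 4.

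TCF7L2, a TCF factor prominent in gut and liver, was covered over 2346 and 1183 bp in control and 774 and 797 bp in lactate libraries. Its region with the best ranks, on chromosome 10 from 113165564 to 113166119, had folds of 10.9 and 14.8 in control against 11.5 and 10.7 in lactate libraries. LEF1 had 1 peak per library, covering 574 and 678 bp in control and 384 and 671 bp in lactate libraries, and its groups overlapped. The peak of lactate replicate 2 lay from 108051381 to 108051764 on chromosome 4. Those of the other libraries lay in a separate region, from 108080826 to 108081518, so no position was shared by all. With lists of equal length LEF1 kept peaks in the lactate libraries alone.

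Of the feedback regulators, RNF43 and ZNRF3, ubiquitin ligases that remove Frizzled receptors from the membrane, had peaks in all 4 libraries. RNF43 was covered over 2409 and 2336 bp in control and 1960 and 1837 bp in lactate libraries, with best folds of 15.4, 12.1, 12.9 and 12.9. ZNRF3 was covered over 1719 and 1467 bp in control and 1171 and 1221 bp in lactate libraries, and with lists of equal length its ratio turned from 0.751 to 1.79. LGR5, a receptor for R-spondins and a stem cell marker, had no peak. DKK1 was covered over 549 and 422 bp in control and 662 and 599 bp in lactate libraries, a ratio of 1.30, and was the only member higher in both lactate libraries.

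The second question was how lactate-treated cells compared with control cells across the pathway. Fewer bases were covered in both lactate libraries than in either control library at 26 of 48 members, against 32.8% of coding genes, and more at 1 member, against 3.4%. Among the 25 members with peaks in all 4 libraries, 22 (88.0%) were lower, against 69.6% of coding genes with such peaks, and 1 was higher, against 4.59%. Their median ratio was 0.567, against 0.599 for those coding genes. By role, 12 ligands, 1 receptor, 8 cytoplasmic parts, 3 nuclear factors and 2 feedback regulators were lower. Those 8 include APC2 and GSK3A, whose control peaks lie outside their spans.

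No single member could pass a test. The smallest two-sided p that an exact permutation test of 2 libraries against 2 can give is p = 0.333, which all 27 members whose groups did not overlap reached, and the Benjamini-Hochberg adjusted p over 19974 genes was 0.922 for each. The values above therefore describe these 4 libraries.

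Summed over all member windows, 143462 and 151367 bp were covered in control and 74388 and 77918 bp in lactate libraries. The ratio was 0.517 ± 0.0259 (propagated SD, n = 2 per group), and for all coding windows it was 0.522. Peak number was 174 and 189 in control against 125 and 129 in lactate libraries, a ratio of 0.700 against 0.722 for all coding windows. Pathway windows thus lay close to coding windows in general. Wide peaks, of 2 kb or more, were 10 and 7 in the control libraries, with none in the lactate libraries. Over all coding windows they numbered 2072 and 2082 against 221 and 219, so a count near 0 is close to that background. The ratio of covered bases was 0.398 for cytoplasmic parts, 0.513 for nuclear factors, 0.517 for ligands, 0.563 for receptors and 0.837 for feedback regulators. Differences between roles were not tested.

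With every list at 37951 peaks, member windows held 121 and 127 peaks in control and 125 and 126 in lactate libraries. The ratio of peak number was 1.01, and 0.999 for all coding windows. Lists of equal length bring this ratio close to equality by design, so it says nothing particular about the members. Covered bases were 108875 and 116682 bp against 74388 and 75863 bp, a ratio of 0.666, and 0.652 for all coding windows. The shortened lists kept the peaks with the largest −log10 p at their full width, so an effect of read depth on width was not tested. Under this setting 21 members had a peak in all 4 libraries, against 29.0% of coding genes. Fewer bases were covered in both lactate libraries at 17 members, against 21.0% of coding genes, and more at 4, against 6.89%.

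Peaks of all libraries in the member windows merged into 230 regions. A peak from all 4 libraries lay in 82 regions (35.7%, against 29.6% over coding windows), from the control libraries alone in 31 (13.5%, against 15.0%) and from the lactate libraries alone in 4 (1.74%, against 2.67%). These 4 lay at WNT10B, WNT11, TCF7L2 and ZNRF3. The ZNRF3 region, on chromosome 22 from 28989841 to 28990329, had folds of 11.1 and 12.2, and the TCF7L2 region lay on chromosome 10 from 112992095 to 112992535. Each of these 4 genes also had peaks in both control libraries elsewhere in its window.

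Coverage of a member moved with that of its surroundings. In the 500 kb on either side of the window, a median of 1.36% was covered over all members, 1.79% for ligands, 0.285% for Frizzled genes and 0.190% for members without a peak, as means of 4 libraries. Across the 48 members, which share the same libraries, Spearman's rho between window and surroundings was 0.67. Some members departed from this. TCF7 had 17.2% of its window covered and 1.17% of its surroundings, and WNT16 had 6.65 and 0.146%. FZD2 and FZD10 had none in the window and 1.84 and 2.09% around it, and DVL1 had 1.55% in the window and 5.16% around it. The part of the surroundings in the differences between roles was not tested.

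**Figure D4:**
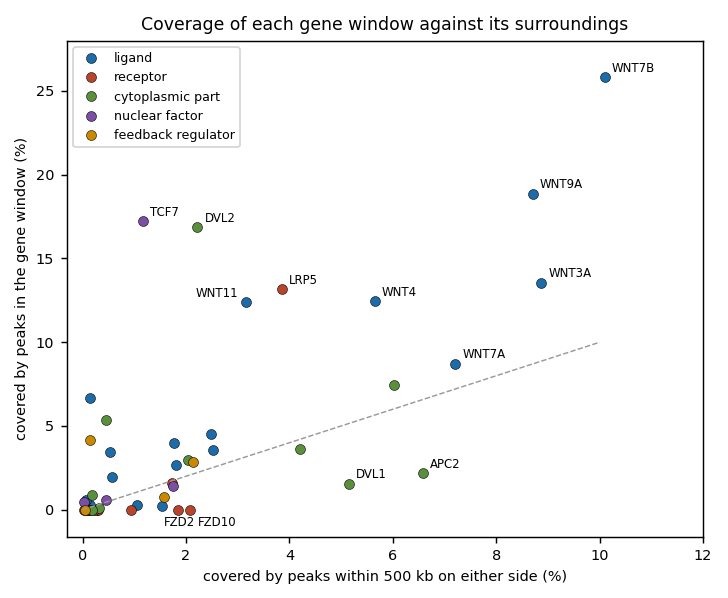
Percent of each member's window covered by peaks (vertical axis) against the percent covered in the 500 kb on either side (horizontal axis), as means over 4 libraries; the dashed line marks equal values. TCF7 lies far above the line, at 17.2 against 1.17%, and FZD2 and FZD10 lie at 0 with covered surroundings.

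A further list of 77 genes of the pathway that are not members gave a broader view. Of these, 33 (42.9%) had peaks in all 4 libraries, against 33.0% of coding genes, and 22 (28.6%) had none, against 40.6%. Peaks in the control libraries alone were found at 7, against 5.77%, and in the lactate libraries alone at 0, against 1.11%. Coverage was lower in both lactate libraries at 32 (41.6%), against 32.8%, and higher at 4, against 3.4%. By list, peaks in all 4 libraries were found at 6 of 18 genes for secretion and secreted modulators, 9 of 15 membrane co-receptors and polarity genes, 7 of 17 cytoplasmic regulators, 8 of 15 nuclear cofactors and 3 of 12 targets.

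CELSR1, a planar polarity cadherin, was the most covered of these, with 40360 and 43867 bp in control and 18634 and 16165 bp in lactate libraries. CTBP1, a corepressor, was covered over 17188 and 20246 bp in control and 3095 and 2656 bp in lactate libraries. CCND1, the cyclin D1 target gene, was covered over 4159 and 4612 bp in control and 1024 and 1454 bp in lactate libraries. All 3 had groups that did not overlap. CREBBP, a histone acetyltransferase that binds beta-catenin, had the opposite order, with 1711 and 1610 bp in control and 3245 and 2660 bp in lactate libraries. The 7 genes with peaks in the control libraries alone were TNKS, DAAM1, PYGO2, TLE5, EP300, TNFRSF19 and CD44. Each held only 1 or 2 peaks per control library, covering from 341 bp (TNKS) to 1179 bp (EP300). Whether the genes of this list keep their patterns with lists of equal length was not tested.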

How the data were processed

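The peak lists of 2 control and 2 lactate ChIP-seq libraries were used, grouped by the treatment label. The submitters' processing notes name Bowtie2 2.3.4.2 and MACS2 2.2.6 on build hg38, besides Trimmomatic 0.38 and Picard 2.18.11. Each deposited list was called on 1 library and gives for each peak a score, the fold enrichment (a ratio) at the summit, −log10 p and −log10 q values and the summit offset, as the deposited narrowPeak columns are defined. The smallest −log10 q was 2.00 to 2.02. Read depth is not given in the lists.

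Peaks overlapping a window by at least 1 bp were assigned to the gene with Python 3.11.15, pandas 2.3.3 and numpy 2.4.6; overlap code was tested on simulated data. Gene spans and promoters are those of RefSeq GRCh38.p14. The members and lists were chosen with earlier results of these data known. Named genes are those with the most covered bases, the lowest and highest lactate to control ratios and the best fold ranks. Genes with peaks in 1 treatment alone and those with start peaks in all 4 libraries are also named. Further members complete a role. From the list of 77 genes, those higher in both lactate libraries are named too. A gene was called lower where both lactate values lay below both control values. Covered bases were tested by exact permutation of the 4 libraries, two-sided, with Benjamini-Hochberg adjustment. Alternatives were a −log10 q of at least 5, equal peak numbers, other flanks and start windows, the summit, joined peaks, a replicate block and leaving out each library. One marker gene of the liver cell list is not reported here and is left out of its counts.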

Additional observations from a re-analysis of the deposited data

How the results depend on the processing

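With every list shortened to the same number of peaks, control-alone members numbered 0 and lactate-alone members 1 (LEF1), 17 members were lower, the ratio of covered bases was 0.666, that of peak number 1.01, and 2 members (WNT11 and WNT16) had a start peak in all 4 libraries. With a 20 kb flank, control-alone members numbered 2 and the covered ratio was 0.490. Requiring the summit in the window left 3 start members, and joining peaks within 1 kb gave a number ratio of 0.775. Leaving out each library in turn gave 25 to 29 members with peaks in all, 1 to 5 control-alone members (4 without control replicate 3 and 5 without lactate replicate 3), 0 lactate-alone members, 26 to 30 lower members, covered ratios of 0.503 to 0.531, number ratios of 0.672 to 0.730 and 5 to 6 start members. The differences between replicates 2 and 3 correlated at r = 0.0336 between treatments over 6601 genes, which share the same libraries. The labels do not say whether libraries of the same replicate number belong together, and this correlation cannot decide it. With a replicate block 28 members were lower, with a smallest sign-flip p of 0.5 (exact test). Ratios of single members changed direction at WNT9B (1.08 with −log10 q of at least 5, 1.99 with equal peak numbers), WNT3 (1.15), AXIN2 (1.55) and ZNRF3 (1.79) with equal peak numbers, WNT10A (1.06) with no flank and WNT16 (1.08) with joined peaks. Among members whose groups overlapped with the full lists, the ratio also changed direction at WNT10B (0.615 with no flank, 0.499 with a 20 kb flank, 0.819 without control replicate 2, in a range of 0.819 to 2.05 over the libraries left out), GSK3B (1.08 with no flank), LEF1 (1.07 without lactate replicate 2, in a range of 0.613 to 1.07), and WNT2 (1.85) and WNT5A (1.13) without lactate replicate 3. Of the other member ratios, 294 kept direction and side, 12 gained and 9 lost separation of the groups. The equal-peak setting removes the weakest peaks of the longer lists. The cause of these changes was not tested. The lists state no depth, so a peak not listed was not detectable at the depth and threshold used and is not shown to be absent.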
